A study of Rattus norvegicus with 21 samples.

Results

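The stress-inducible and constitutive heat shock proteins were described in 21 2-colour arrays of rat spinal cord. The 7 genes listed were the inducible Hspa1a, Hspa1b, Hmox1 and Hspb1 and the constitutive Hspa5, Hspa8 and Hspd1. All probes that the platform annotation assigned to these symbols were taken. This gave 8 probes of 6 genes, among 5376 probes on the array, 4962 of them measured on 1 array or more. The inducible genes had 6 probes, with 2 each for Hspa1a and Hspb1 and 1 each for Hspa1b and Hmox1. Hspa8 and Hspd1 had 1 probe each, and Hspa5 had none.

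The series asked how compounds with anti-inflammatory action change gene expression in injured spinal cord, with 7 groups of 3 arrays. Uninjured was freshly dissected cord. Injured 4 hr was cord held in culture for 4 hr with PBS, the vehicle, not pooled. CKIN, MP, Acet (acetaminophen), Indo (indomethacin) and NS398 were cord cultures given the named treatment, also taken at 4 hr. Indomethacin and acetaminophen are common non-steroidal analgesics, NS398 is an inhibitor of cyclooxygenase 2, and CKIN and MP are given in the labels as letters only. Each array compared the sample with a pooled control culture. The pool was PBS-treated for Uninjured, Injured 4 hr, CKIN, MP and Acet, ethanol-treated for Indo and DMSO-treated for NS398. All groups thus shared the dissection, and all but Uninjured the 4 hr of culture. The labels give no strain, sex or age, and do not say that the 3 samples of a group came from separate animals or cultures, so the spread behind the p-values may be technical.

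Heat shock proteins are chaperones that hold, fold or hand over other proteins. In most cells a constitutive set is made all the time, and a second set is switched on within minutes of heat, oxidation or wounding, when heat shock factor 1 binds short GAA-based elements in front of their genes. Hspa1a and Hspa1b encode the inducible HSP70 and are nearly identical in sequence, so that a probe of one can bind RNA of the other and their signals cannot be told apart with certainty. Hspb1 encodes the small heat shock protein HSP27, which binds unfolding proteins without using ATP and is carried by many motor and sensory neurons at rest. Hmox1 encodes haem oxygenase 1, which degrades haem and is switched on mainly by NRF2 and the loss of BACH1. Hspa8 encodes HSC70, the abundant resting HSP70 of neurons, which also strips clathrin from vesicles, and Hspd1 encodes HSP60, the chaperonin of the mitochondrial matrix.

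The sequences in front of 2 members are shown because they carry the elements that heat shock factors bind and belong to 1 gene labelled inducible and 1 labelled constitutive. They are the 250 bases before the gene start in RefSeq's annotation of the rat build GRCr8, 5′ to 3′ on the gene's strand. Hspb1 is at chr12:26432302-26432551 on the minus strand and Hspa8 at chr8:50080264-50080513 on the plus strand. Capitals mark the matches to GAANNTTC, TTCNNGAA or the 3-unit form described next.
Hspb1: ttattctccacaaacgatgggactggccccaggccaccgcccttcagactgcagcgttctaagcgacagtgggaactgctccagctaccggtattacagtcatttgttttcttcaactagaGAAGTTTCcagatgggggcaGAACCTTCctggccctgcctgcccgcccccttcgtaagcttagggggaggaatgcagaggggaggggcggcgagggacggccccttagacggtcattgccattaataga
Hspa8: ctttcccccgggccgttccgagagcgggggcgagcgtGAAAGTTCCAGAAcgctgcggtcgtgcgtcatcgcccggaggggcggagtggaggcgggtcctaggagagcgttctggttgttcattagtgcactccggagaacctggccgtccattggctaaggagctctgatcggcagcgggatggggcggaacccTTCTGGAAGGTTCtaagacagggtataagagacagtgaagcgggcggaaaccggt
Hspb1 held 2 matches to GAANNTTC, at 129 to 122 and 109 to 102 bases before the start. Hspa8 held 2 matches to the 3-unit form, in which GAA and TTC blocks alternate with 2 bases between them, at 213 to 201 and 55 to 43 bases before the start. Both strands were searched, and each 3-unit match also contains the shorter cores. Of the 33469 promoter windows in the same table, 7.23% held GAANNTTC, 7.48% held TTCNNGAA and 0.663% held the 3-unit form. The table's window for Hspd1 lies inside the gene's annotated span and is not described. The Hspa1a window, at chr20:3859506-3859755 on the plus strand, held 0 matches to these 3 patterns. That window is set by the annotated start of a gene span of 4045 bases, longer than the 2456 of Hspa1b. Sequence inside the span was not searched, so elements nearer the coding part would be missed. A match describes the letters and not a bound site. Hspa1b and Hmox1 had no entry.

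The deposited values were log2 ratios of sample over pool, with 3092 to 4916 probes measured per array. Array medians lay far from 0 and differed by group, from -4.13 to -3.11 in Uninjured, -2.27 to -2.13 in Injured 4 hr and -1.63 to 0.69 in the treatment arrays. Each array was therefore centred on its own median, and log2 ratios below are centred unless called deposited. Centring removed a mean difference between array medians of 1.53 for Injured 4 hr minus Uninjured, and of 1.93, 1.98 and 1.93 for CKIN, MP and Acet minus Injured 4 hr. The median change over the probes tested went from 1.47, 1.54, 1.67 and 1.64 in deposited ratios to -0.05, -0.38, -0.27 and -0.21, so it was near 0 in the first comparison and below 0 in the others. A centred change is a change relative to the median of each array's own measured probes. Centring on Gapdh, a glycolytic enzyme often used as a reference gene, was tried after the data were seen. More than 1100 spots were missing on 10 arrays, namely all 3 of CKIN, all 3 of Indo, 2 of MP and 1 each of Acet and NS398. The MP array that was not among them, replicate 2, stood apart from the other MP arrays and had the highest centred ratio of the group for all 8 probes. Tests were limma moderated tests over all probes with a value on at least 2 arrays per group, with Benjamini-Hochberg adjustment and a threshold of 0.05.

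**Figure D1:**
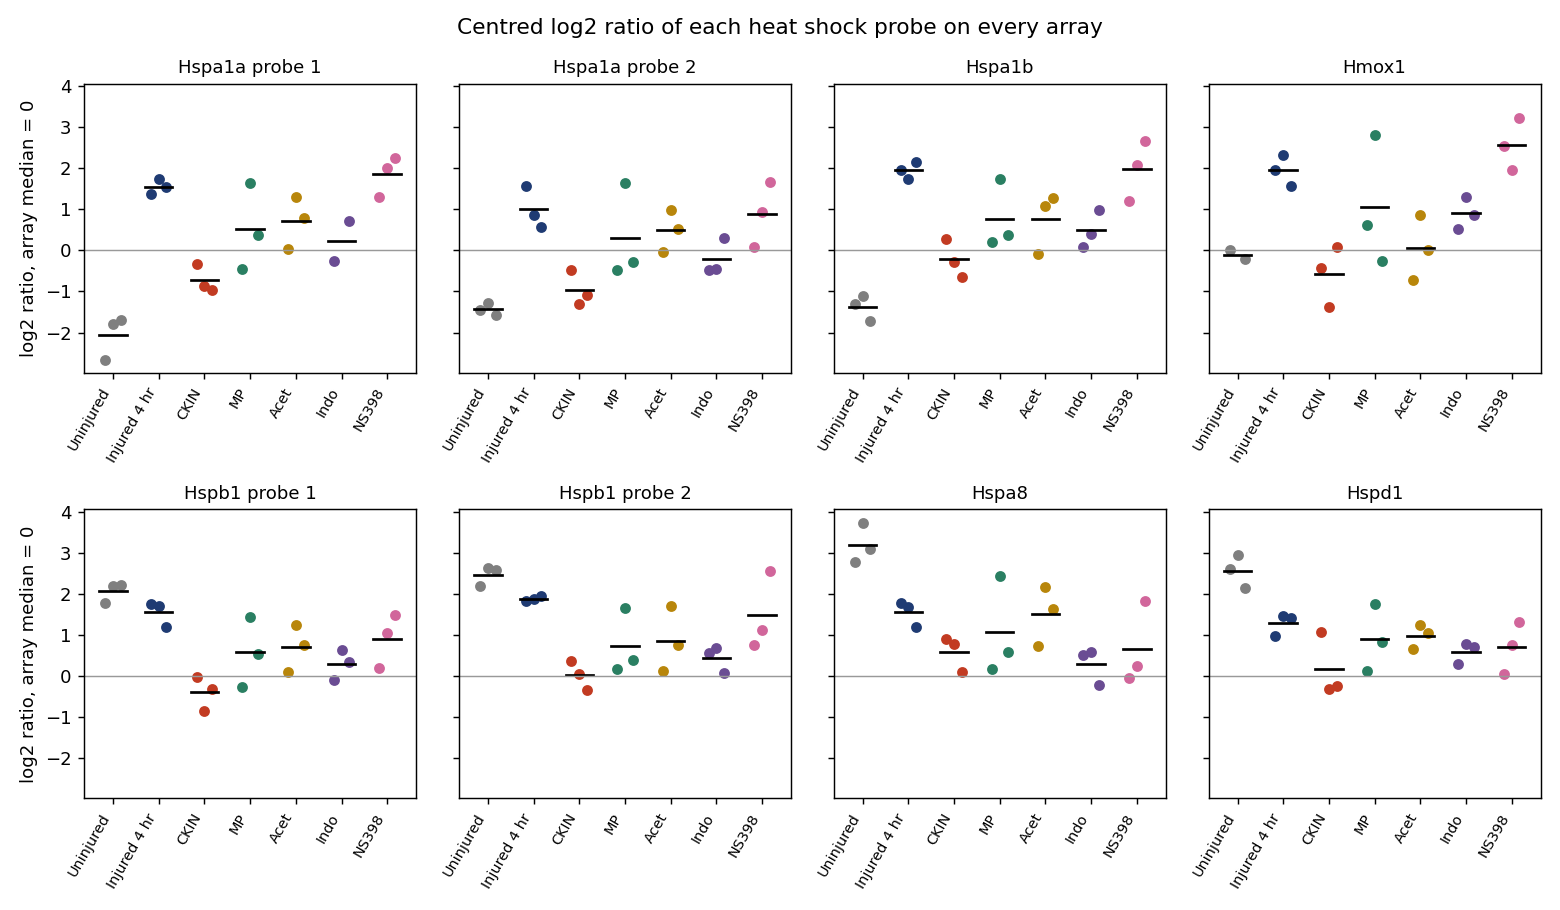
Centred log2 ratio of each of the 8 heat shock probes (vertical axis) on each array, by group (horizontal axis); points are arrays and bars are group means. The 3 HSP70 probes lie between -2.66 and -1.11 in Uninjured and between 0.57 and 2.16 in Injured 4 hr, while Hspa8 and Hspd1 are highest in Uninjured.

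Culture of the cord for 4 hr separated the HSP70 genes and Hmox1 from the other members. Hspa1a and Hspa1b went from the bottom of the distribution of ratios in fresh cord to its upper part in injured cord, and Hmox1 from its middle to its top. Both Hspb1 probes had ratios to the pool above the array median in both states. The constitutive Hspa8 and Hspd1 were lower relative to the array median, although this depended on the scaling. In all, 4 of the 6 inducible probes rose and both constitutive probes fell, where 690 of 4821 probes (14.3%) were called, 39 higher (0.809%) and 651 lower (13.5%).

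Hspa1a probe 1 had deposited ratios of -6.60, -5.93 and -4.81 in Uninjured and -0.90, -0.48 and -0.58 in Injured 4 hr. Every Injured array was above every Uninjured array by several log2 units. Centred, the means were -2.05 ± 0.53 and 1.55 ± 0.18 (SD, n = 3), and the gene rose by 3.60 ± 0.46 (SE, adjusted p = 6.47e-05), the third highest change of all 4821 probes. The second Hspa1a probe had deposited ratios of -5.39, -5.42 and -4.70 in Uninjured and -0.70, -1.36 and -1.57 in Injured 4 hr, again without overlap, and rose by 2.43 ± 0.49 (adjusted p = 0.00191). Hspa1b had -5.24, -5.24 and -4.83 in Uninjured and -0.32, -0.49 and 0.03 in Injured 4 hr. It rose by 3.32 ± 0.45 (adjusted p = 7.22e-05), ranking 4 from the highest. The 3 probes of inducible HSP70 thus gave the same picture, none with overlap between the groups. On the centred scale 54% of all probes were without overlap too, so it is the size of these changes that set them apart in rank.

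The place of a probe within its own array does not depend on any shift of the whole array. Hspa1a probe 1 stood at the 0.23, 0.97 and 1.54 percentile of the Uninjured arrays and at the 88.1, 93.9 and 90.3 percentile of the Injured arrays. Hspa1b stood at the 4.31, 7.99 and 1.43 percentile and at the 96.5, 93.8 and 97.9 percentile. Hspa1a probe 2 had mean percentiles of 3.06 in Uninjured and 82.3 in Injured 4 hr. A high place in the Injured arrays was not particular to HSP70. The Hspb1 probes had mean percentiles of 91.0 and 95.5 there. By mean centred ratio in those arrays, Hspa8 and Hspa1a probe 1 each stood above 91.3% of probes. Few probes were as low as the HSP70 probes against the PBS pool in fresh cord.

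Hmox1, the haem-degrading enzyme, had deposited ratios of -3.94 and -3.33 on the 2 Uninjured arrays that measured it and of -0.32, 0.12 and -0.56 in Injured 4 hr. The groups did not overlap. Its percentiles were 49.9 and 44.7 in Uninjured against 96.5, 99.7 and 90.6 in Injured 4 hr. Hmox1 rose by 2.06 ± 0.65 (SE, adjusted p = 0.0371), ranking 13 from the highest. The call was lost when any 1 of the 3 Injured arrays was left out, and when Uninjured replicate 2 was, although that array had no value for the probe (changes 1.87 to 2.25, adjusted p 0.0572 to 0.125). It was lost too with the replicate number as a block (1.90, adjusted p = 0.0589).

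Hspb1, the small heat shock protein, did not share this pattern. Its first probe had centred ratios of 1.77, 2.19 and 2.21 in Uninjured and 1.74, 1.70 and 1.20 in Injured 4 hr, and its second had 2.20, 2.63 and 2.57 against 1.83, 1.87 and 1.96. The ratios of both probes to the PBS pool were thus above the array median in fresh and in injured cord, which gives no level of RNA. In deposited ratios their means were below 0 in both groups, at -1.67 and -1.26 in Uninjured and -0.66 and -0.32 in Injured 4 hr. The changes of -0.51 and -0.58 were not called (adjusted p = 0.439 and 0.419), and their sign depended on the scaling. They were 1.01 and 0.95 in deposited ratios, where neither was called, and 1.21 and 1.15 centred on Gapdh, where both were called higher (adjusted p = 0.0158 and 0.00677).

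Hspa8, the resting HSP70, had deposited ratios of -1.17, -0.40 and -0.03 in Uninjured and -0.50, -0.52 and -0.95 in Injured 4 hr, and the groups overlapped. Centred, the ratios were 2.77, 3.74 and 3.08 against 1.77, 1.69 and 1.18, without overlap. Hspa8 fell by 1.65 ± 0.53 relative to the array median (adjusted p = 0.0413), but the change was 0.18 under scale normalization and 0.08 centred on Gapdh, and the call held in 1 of 6 scalings and after 1 of 6 omissions of an array. Hspd1, the mitochondrial chaperonin, had centred ratios of 2.62, 2.93 and 2.15 in Uninjured and 0.97, 1.46 and 1.42 in Injured 4 hr. It fell by 1.29 ± 0.43 relative to the array median (adjusted p = 0.047), while its change was 0.24 in deposited ratios, 0.21 under scale normalization and 0.44 centred on Gapdh. That call was lost after each of the 6 omissions of an array. Neither constitutive chaperone therefore had a direction that held in every scaling.

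The inducible HSP70 probes, by contrast, were called higher in all 6 scalings tried. Their changes ranged from 3.31 to 5.32 for Hspa1a probe 1, from 2.17 to 4.16 for probe 2 and from 3.30 to 5.04 for Hspa1b. Hmox1 ranged from 2.01 to 3.71 and was called in 5 of the 6, with an adjusted p of 0.308 after quantile normalization. The scalings gave very different backgrounds. In corrected ratios, with a trend on the mean ratio of the Injured arrays and the source plate taken out, 7.24% of probes were called. The other shares were 0.415% after quantile normalization, 0.685% after scale normalization, 50.4% in deposited ratios and 60.4% centred on Gapdh. The split between higher and lower calls moved with them, from 39 against 651 when centred to 2416 against 14 when deposited, 2902 against 12 on Gapdh, 14 against 6 after quantile and 29 against 4 after scale normalization, and 120 against 229 in corrected ratios.

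**Figure D2:**
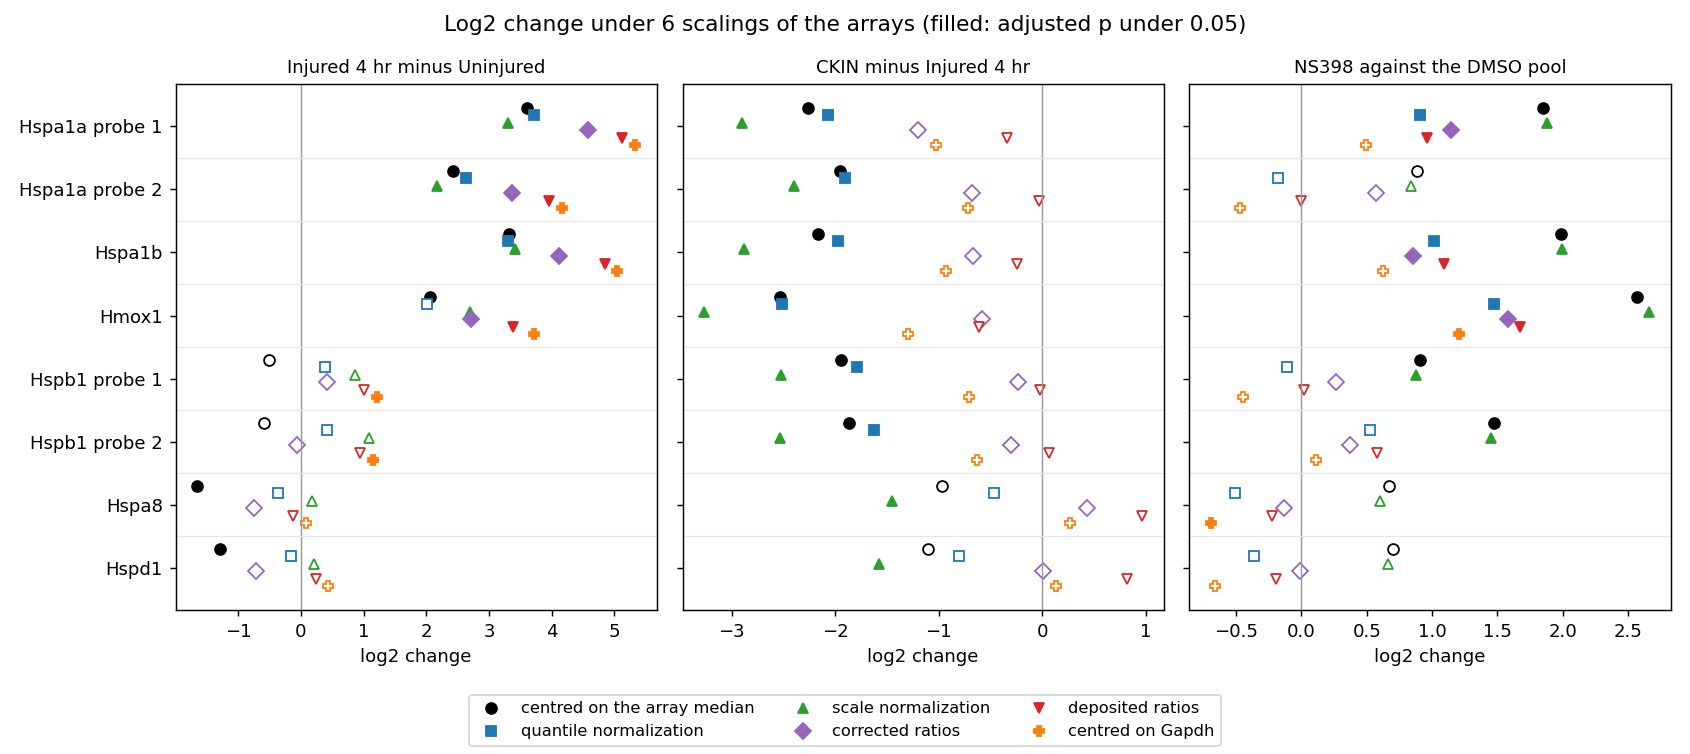
Log2 change of each heat shock probe under the 6 scalings tried for Injured 4 hr minus Uninjured, CKIN minus Injured 4 hr and NS398 against its DMSO pool; filled points passed the adjusted p threshold of 0.05. In the first comparison the 3 HSP70 probes are above 2 and filled in every scaling, while Hspb1, Hspa8 and Hspd1 lie on both sides of 0.

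A ratio set against Hspa8 on the same array removes any shift of the whole array, at the cost of carrying the change of Hspa8. On that scale Hspa1a probe 1 had means of -5.24 ± 0.41 in Uninjured and 0.00 ± 0.38 in Injured 4 hr (SD, n = 3), and Hspa1b had -4.57 ± 0.44 and 0.39 ± 0.51. Hmox1 went from -3.03 ± 0.38 (n = 2) to 0.40 ± 0.23. The Hspb1 probes went from -1.14 ± 0.36 to -0.00 ± 0.03 and from -0.73 ± 0.33 to 0.34 ± 0.38, also without overlap. Hspd1 overlapped, at -0.63 ± 0.42 and -0.27 ± 0.52. All 6 inducible probes were thus higher in Injured 4 hr relative to Hspa8, but so were 74.9% of all probes without overlap (76% in either direction).

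On the centred scale the other chaperone lists did not rise with inducible HSP70. Probes existed for 19 of the 51 listed cytosolic genes, 18 of 28 endoplasmic reticulum genes and 9 of 16 mitochondrial genes. Of 19 other cytosolic chaperones and heat shock factors tested, 0 rose and 8 fell, with a median of -1.01 where all probes had -0.05. Stip1, which bridges HSP70 and HSP90, fell by 1.65, and the small heat shock proteins Hspb8 and Hspb6 fell by 1.48 and 1.42. Of 20 probes of endoplasmic reticulum chaperones and the unfolded protein response, 0 rose and 8 fell, among them the lectin chaperone Canx (-2.002), the disulphide isomerases Pdia3 (-1.68) and Pdia6 (-1.62) and the co-chaperone Dnajb9 (-1.74). Of 10 mitochondrial probes, 5 fell, including Hspa9 (-1.76), the matrix HSP70, and Tomm20 (-1.68), an import receptor.

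Among 28 probes for haem handling and NRF2 targets, 0 rose and 4 fell when centred, with Hmox2 (-2.09), the constitutive haem oxygenase, going opposite to Hmox1. Gclm (-1.72), a subunit of the enzyme of glutathione synthesis, Alas1 (-1.62), the first enzyme of haem synthesis, and Gstm1 (-1.54) made up the rest. These directions belong to the centred scale. On Gapdh, 6, 5, 1 and 13 probes of the cytosolic, endoplasmic reticulum, mitochondrial and haem lists were called higher and 0 lower. Corrected ratios called 0, 0, 0 and 2 higher and 2, 2, 1 and 2 lower.

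Markers of the cord's cell types moved in the same comparison. Neuronal probes were lower in 7 of 11, with a median per array of 3.61 to 3.92 in Uninjured and 1.61 to 1.65 in Injured 4 hr, and astrocyte probes were lower in 6 of 9. Of 9 oligodendrocyte probes 1 was lower, and 0 of 6 microglial, 0 of 4 blood and 0 of 10 connective tissue probes were called. On Gapdh 4 neuronal probes were lower and 2 higher, while all 6 microglial and all 4 blood probes were higher. In bulk tissue, fewer cells of a type and less RNA per cell cannot be told apart. The part of this shift in the values of Hspa8 and Hspd1, which neurons carry at high levels, was not tested. The arrays give ratios and no levels, so the presence of a cell type cannot be read from them.

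With CKIN, the inducible members were lower than in the unpooled vehicle cultures on the centred scale, and the constitutive ones were not called. All 6 inducible probes fell and 0 of 2 constitutive probes passed, where 748 of 3735 probes (20%) were called, 55 higher (1.47%) and 693 lower (18.6%). The inducible members were also lower relative to Hspa8 on the same arrays. Whether they were called lower relative to the whole array depended on the scaling. Each CKIN array also compared its sample directly with the PBS pool. With that centred ratio tested against 0, 0 of 8 members were called, 3 above 0 and 5 below, where 13.9% of all probes were called. Against the same pool the Injured arrays had all 8 members above 0 when centred, at 1.00 to 1.95.

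Hmox1 had deposited ratios of -0.32, 0.12 and -0.56 in Injured 4 hr and -0.42, -2.02 and -0.13 with CKIN, and these overlapped. Its centred ratios of 1.95, 2.33 and 1.58 and of -0.42, -1.38 and 0.07 did not. Hmox1 fell by 2.53 ± 0.57 (SE, adjusted p = 0.00707), ranking 15 from the lowest of 3735. Hspa1a probe 1 had centred ratios of 1.37, 1.73 and 1.55 in Injured 4 hr against -0.33, -0.86 and -0.96 with CKIN. It fell by 2.26 ± 0.46 (adjusted p = 0.00531), and probe 2 fell by 1.95 (adjusted p = 0.0111). Hspa1b fell by 2.16 (adjusted p = 0.00557), and the Hspb1 probes changed by -1.95 and -1.86 (adjusted p = 0.00619 and 0.0102). No CKIN array overlapped an Injured array for these 6 probes, but 48.4% of all probes were apart in the same way. Hspa8 had centred ratios of 0.89, 0.77 and 0.10 with CKIN against 1.77, 1.69 and 1.18, and Hspd1 had 1.08, -0.32 and -0.23 against 0.97, 1.46 and 1.42. Their changes of -0.96 (adjusted p = 0.204) and -1.11 (adjusted p = 0.069) were not called.

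These calls belonged to 3 of the 6 scalings. Quantile normalization called the same 6 probes and scale normalization, with 32.9% of all probes called, all 8. Deposited and corrected ratios and Gapdh centring called 0 of 8, where they called 59.8%, 0.75% and 1.79% of all probes. In corrected ratios the inducible changes were -1.20 (adjusted p = 0.062) for Hspa1a probe 1 and -0.68 to -0.24 for the others, and on Gapdh they were -1.30 to -0.63. Deposited ratios gave -0.61 to 0.06. Over all probes the split of 55 higher to 693 lower became 2231 to 1 in deposited ratios, 62 to 5 on Gapdh, 156 to 462 after quantile normalization and 11 to 17 in corrected ratios. All 3 CKIN arrays and 0 of 3 Injured arrays were among those with over 1100 missing spots. With that property as a covariate, estimated through the MP, Acet and NS398 arrays, the inducible changes were -1.25 to -0.61 and 0 were called. The call of Hspa1a probe 2 was also lost without Injured 4 hr replicate 1 (-1.67, adjusted p = 0.0604), and Hspd1 was called lower without CKIN replicate 1 (-1.56, adjusted p = 0.0213).

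Relative to Hspa8, all 6 inducible probes were lower with CKIN without overlap, where 8.49% of all probes were (41.2% in either direction). The means were 0.00 ± 0.38 in Injured 4 hr and -1.30 ± 0.30 with CKIN for Hspa1a probe 1, and 0.39 ± 0.51 and -0.81 ± 0.23 for Hspa1b. Hmox1 had 0.40 ± 0.23 and -1.17 ± 1.07. The Hspb1 probes had -0.00 ± 0.03 and -0.98 ± 0.60, and 0.34 ± 0.38 and -0.56 ± 0.14. A shift of a whole array cancels in these differences, so they are the same centred, deposited or on Gapdh. Hspd1 overlapped on this scale.

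The chaperone lists had calls in the same direction on the centred scale. Of 18 cytosolic probes 6 fell, including Cryab (-1.87), the small heat shock protein alpha B-crystallin, and Hsp90ab1 (-1.55), the constitutive HSP90. Of 20 endoplasmic reticulum probes 6 fell, among them the luminal HSP90 Hsp90b1 (-1.83 and -1.80) and the stress transcription factor Atf4 (-1.83 and -1.48). Of 8 mitochondrial probes 3 fell, including Hspe1 (-1.44), the partner of Hspd1. Of 26 haem and NRF2 probes 11 fell, among them the metal-binding Mt1 (-2.08 and -1.92) and the ferritin chains Ftl1 (-1.98) and Fth1 (-1.86). The list medians were -0.80, -0.82, -1.04 and -1.16 where all probes had -0.38, and limma called 0 of their probes in corrected ratios or on Gapdh, with 1, 3, 0 and 4 and with 3, 1, 1 and 6 probes at an unadjusted p below 0.05. Among the cell type markers, 4 of 9 astrocyte, 5 of 9 oligodendrocyte, 1 neuronal and 1 of 4 microglial probes were lower too, and their part in these values was not tested.

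MP and Acet were compared with the same Injured arrays as CKIN, so the 3 comparisons share their controls. With MP, 0 of 8 members passed where 90 of 4390 probes (2.05%) were called, 2 higher and 88 lower, and 4 of 8 members and 770 of 4390 probes had an unadjusted limma p below 0.05. Hspa1b had centred ratios of 1.95, 1.72 and 2.16 in Injured 4 hr and 0.19, 1.73 and 0.36 with MP. The MP array at 1.73 was replicate 2, the one that stood apart, and it lay at the level of the Injured arrays. Hmox1 was spread still wider, at 0.62, 2.81 and -0.27 with MP, the second of these above every Injured array. The changes were -1.03 for Hspa1a probe 1 (adjusted p = 0.251), -1.18 for Hspa1b (adjusted p = 0.166) and -0.90 for Hmox1 (adjusted p = 0.424). Without that array, limma called all 6 inducible probes lower where it called 16.4% of all probes (15.9% lower), with -1.59 (adjusted p = 0.0189), -1.67 (adjusted p = 0.0162) and -1.78 (adjusted p = 0.018) for these 3. Scale normalization called 5 inducible probes lower, all but Hspa1a probe 2, where 14.7% of all probes were called. In deposited ratios all 8 members were above 0, the same 3 probes at 0.95, 0.80 and 1.08, and 4 were called higher, Hspa1a probe 2, Hspb1 probe 1, Hspa8 and Hspd1, where 72.2% of all probes were called and all of them higher. The split of calls was 9 to 26 after quantile normalization, 10 to 30 in corrected ratios and 2 to 1 on Gapdh.

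With Acet, 0 of 8 members passed where 62 of 4733 probes (1.31%) were called, 5 higher and 57 lower, and 3 of 8 members and 635 of 4733 probes had an unadjusted limma p below 0.05. Hmox1 came nearest. Its centred ratios were -0.73, 0.85 and 0.02 with Acet against 1.95, 2.33 and 1.58 in Injured 4 hr, without overlap, where 26.8% of all probes did not overlap. The change was -1.91 ± 0.58 (SE, adjusted p = 0.102), ranking 37 from the lowest. It passed in the fit of the 2 groups alone (adjusted p = 0.0358), without Acet replicate 2 (-2.31, adjusted p = 0.0469) and under scale normalization (-2.67, adjusted p = 0.012), where 10.7% of all probes were called and 5 inducible probes were lower, all but Hspa1a probe 2. In deposited ratios Hmox1 was 0.02, and all 8 members were above 0 with 5 called higher, both Hspa1a probes, Hspb1 probe 1, Hspa8 and Hspd1, where 71.2% of all probes were called, all of them higher. Hspa1b had centred ratios of -0.09, 1.07 and 1.27 with Acet, all below the lowest Injured array at 1.72. The HSP70 changes were -0.85 for Hspa1a probe 1 (adjusted p = 0.451) and -1.19 for Hspa1b (adjusted p = 0.203), and in deposited ratios 1.08 and 0.74. Quantile normalization gave 16 higher to 31 lower calls over all probes, corrected ratios 7 to 27 and Gapdh centring 5 to 0.

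Relative to Hspa8, which had deposited ratios of 1.41, 1.37 and 0.93 with Acet, Hmox1 had a mean of -1.46 ± 0.16 with Acet against 0.40 ± 0.23 in Injured 4 hr. Hspa1a probe 1 had -0.80 ± 0.09 and Hspa1b -0.76 ± 0.36 with Acet. On this scale 5 of the 6 inducible probes were lower with Acet without overlap, all but Hspa1a probe 2, where 19.4% of all probes were (21.4% in either direction). With MP 3 were lower, Hspa1b and both Hspb1 probes, where 6.15% of all probes were (8.13% in either direction). Of the other chaperone and haem lists, Hyou1 (-1.32), an endoplasmic reticulum HSP110, was the 1 probe called with MP, and with Acet limma called 0 probes of the 4 lists. With Acet the cytosolic, endoplasmic reticulum, mitochondrial and haem lists had 2, 1, 1 and 4 probes at an unadjusted p below 0.05, and medians of -0.35, -0.30, -0.36 and -0.58 where all probes had -0.21.

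The treatments were also compared with each other, which sets treatment arrays against treatment arrays of the same PBS pool. No member passed in any of the 3 comparisons. limma called 6 of 3749 probes (0.16%) for CKIN minus Acet, 1 of 4378 (0.0228%) for MP minus Acet and 0 of 3632 for CKIN minus MP, with 655, 275 and 552 probes at an unadjusted p below 0.05. For CKIN minus Acet the split was 1 higher to 5 lower, and 12 to 5 in corrected ratios, 3 to 0 on Gapdh and 0 to 2 in deposited ratios. Of the members, 4, 0 and 5 were below that unadjusted p. Hspa1a probe 1 was at -0.33, -0.86 and -0.96 with CKIN, at 0.03, 1.30 and 0.78 with Acet and at -0.46, 1.63 and 0.38 with MP. CKIN did not overlap Acet for this probe, where 22.5% of all probes did not overlap (13.4% lower). The change of -1.42 was not called by limma (adjusted p = 0.149), nor was that against MP (-1.23, adjusted p = 0.234). Hmox1 was 1.01 higher with MP than with Acet (adjusted p = 0.893), and its change for CKIN minus MP was -1.63 (adjusted p = 0.21). Relative to Hspa8, Hmox1 was higher with MP than with Acet without overlap, where 5.12% of all probes were (5.78% in either direction). Both Hspa1a probes were lower with CKIN than with MP, where 2.81% of all probes were (11% in either direction), and than with Acet, where 1.23% were (33.2% in either direction). Hspa1b, nearly identical to Hspa1a in sequence, overlapped in both comparisons, with differences of -0.50 from MP and -0.05 from Acet. Hmox1 and both Hspb1 probes overlapped in both too.

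Indo and NS398 were measured against pools of their own solvents, and no unpooled solvent culture entered the test. The ratio was tested against 0, which leaves out the spread of the control. The Injured arrays, vehicle culture against a pool of vehicle cultures, show what such a test gives when the RNA on both sides is alike. There, 1072 of 4864 probes (22%) were called, 1019 of them higher (20.9%), and all 8 members were called higher at 1.00 to 1.95. In deposited ratios all 8 were below 0 and the split over all probes was 2 higher to 4406 lower, with 2 to 4436 on Gapdh, 134 to 3371 after quantile and 1240 to 257 after scale normalization, so their direction depended on the centring, and each value for Indo and NS398 has that background beside it.

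With NS398, inducible HSP70 and Hmox1 were among the probes highest above the DMSO pool. Of 4485 probes, 986 (22%) were called, 479 higher (10.7%) and 507 lower (11.3%), and 5 of the 6 inducible probes but 0 of 2 constitutive probes were called higher. Hmox1 had deposited ratios of 2.39, 1.05 and 1.59, all above 0, and centred ratios of 2.54, 1.95 and 3.22, with a mean of 2.57 ± 0.41 (SE, n = 3, adjusted p = 0.000203). It stood at the 99.6, 98.9 and 99.7 percentile of its arrays. Hspa1b had deposited ratios of 1.05, 1.19 and 1.04 and a centred mean of 1.99 ± 0.32 (adjusted p = 0.000188). Hspa1a probe 1 had 1.15, 1.10 and 0.63, a centred mean of 1.85 ± 0.33 (adjusted p = 0.000523) and percentiles of 97, 99 and 97.7. Unlike in the Injured arrays, these 3 probes were above 0 on each NS398 array before as well as after centring. The share of all probes that were so was not counted, so this is a description only.

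The second Hspb1 probe, at 0.61, 0.21 and 0.92 in deposited ratios, was above 0 on each array too, and the other 4 probes were not. The second Hspa1a probe had deposited ratios of -0.08, 0.03 and 0.03, and its centred 0.89 was not called (adjusted p = 0.067), so the probes of this gene pair differed here. The Hspb1 probes were called at 0.91 (adjusted p = 0.0317) and 1.47 (adjusted p = 0.00253). The first lost its call without NS398 replicate 2 (0.84, adjusted p = 0.117) or 3 (0.62, adjusted p = 0.247), and the second without replicate 3 (0.94, adjusted p = 0.0699). In the fit of NS398 alone both lost it, leaving 3 inducible probes where 2.79% of all probes were called. Without replicate 1 the contrast with the constitutive members did not hold, since Hspa1a probe 2 (1.29, adjusted p = 0.0224) and Hspd1 (1.03, adjusted p = 0.041) were called as well, 7 of 8 members where 22.7% of all probes were. The first Hspb1 probe was -0.45 on Gapdh and -0.11 after quantile normalization. Hspa8 had deposited ratios of -0.21, -0.66 and 0.20 and a centred mean of 0.67 (adjusted p = 0.214), and Hspd1 had -0.11, -0.15 and -0.32 and 0.70 (adjusted p = 0.103). Both were on the other side of 0 in deposited ratios, at -0.22 and -0.19, and on Gapdh Hspa8 was called lower (-0.69, adjusted p = 0.0152). Over the 6 scalings Hmox1 was called in 6, at 1.21 to 2.66, Hspa1a probe 1 in 5, at 0.49 to 1.88, Hspa1b in 5, at 0.63 to 1.99, and each Hspb1 probe in 2. The share of all probes called was 44.1% in deposited ratios, 67.9% after quantile normalization, 23.1% after scale normalization, 12.8% in corrected ratios and 77.8% on Gapdh. Over all probes the split of 479 higher to 507 lower became 53 to 1924 in deposited ratios, 57 to 2987 after quantile normalization, 217 to 356 in corrected ratios and 26 to 3462 on Gapdh.

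Among the other chaperone and haem genes with NS398, 4 of the cytosolic probes were called higher and 1 lower, 5 and 2 in the endoplasmic reticulum list, 2 and 1 in the mitochondrial list and 8 and 3 in the haem and NRF2 list. The highest were Txnrd1 (1.95, adjusted p = 0.00106), the NRF2 target thioredoxin reductase, Mt1 (1.95 and 1.61) and Txn1 (1.63), thioredoxin itself. Stress genes of the endoplasmic reticulum, Atf4 (1.40 and 1.35) and Ddit3 (1.23), and the HSP70 partners St13 (1.32) and Dnaja1 (1.07) were called higher. Gstp1 (-1.96), a glutathione transferase, and Hsp90b1 (-1.26) were lower. On Gapdh the 4 lists had 0 probes higher and 14, 13, 7 and 17 lower, and in corrected ratios 0, 3, 0 and 3 higher and 1, 4, 0 and 3 lower, so their directions belong to the centred scale. Of the cell type markers, 3 of 10 connective tissue, 2 of 3 blood, 2 of 9 oligodendrocyte, 2 of 9 astrocyte, 1 of 11 neuronal and 1 of 6 microglial probes were higher on that scale and 0 lower, and their part in these values was not tested. In the Injured arrays against their pool the same lists had 9, 10, 7 and 18 probes called higher and 0, 0, 0 and 1 lower.

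With Indo, limma called 0 of 8 members where 507 of 3802 probes (13.3%) were called, 99 higher and 408 lower, and 1 member and 983 probes had an unadjusted p below 0.05. Hmox1 had deposited ratios of 0.75, 1.13 and 0.66, above 0 on each array, and a centred mean of 0.90 ± 0.41 (SE, adjusted p = 0.16). Hspa1b had 0.32, 0.22 and 0.77 deposited and 0.49 centred (adjusted p = 0.358), and Hspa1a probe 1, measured on 2 arrays, had 0.23 (adjusted p = 0.773). The second Hspa1a probe was the 1 member below 0, at -0.22 (adjusted p = 0.745), and was called lower after quantile normalization (-1.27, adjusted p = 0.00131) and on Gapdh (-0.89, adjusted p = 0.0297). Hspa1b and Hspa1a probe 1 were below 0 on Gapdh (-0.19 and -0.35). The split over all probes was 23 to 267 in deposited ratios, 27 to 2430 after quantile normalization, 230 to 511 after scale normalization, 130 to 241 in corrected ratios and 7 to 858 on Gapdh. All 3 Indo arrays were among those with many missing spots, and with that property as a covariate 6 of 8 members were called higher, where 25.1% of all probes were called and 16.3% were higher, Hspa1b at 1.17 (adjusted p = 0.00298) and Hmox1 at 1.57 (adjusted p = 0.00866). In the cytosolic, endoplasmic reticulum, mitochondrial and haem lists, 1, 1, 0 and 1 probes were called higher and 1, 1, 0 and 4 lower. Txnrd1 (1.23), Ddit3 (1.09) and the heat shock factor Hsf2 (0.72) were higher, and Cryaa (-2.14), Gstp1 (-2.11) and Hyou1 (-1.11) were among the lower. On Gapdh these lists had 0 probes higher and 4, 3, 3 and 7 lower, so the 3 higher calls were lost there. Corrected ratios called 2, 2, 0 and 0 higher and 1, 2, 1 and 3 lower, Txnrd1 not among them.

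Placed in order of their centred means over the 5 groups measured against the PBS pool, the members fell into different sequences. Hspa1a probe 1 ran from Uninjured (-2.05) through CKIN (-0.71), MP (0.52) and Acet (0.70) to Injured 4 hr (1.55). The neighbours Uninjured and CKIN, and Acet and Injured 4 hr, did not overlap, and the other neighbours did. Hmox1 ran from CKIN (-0.58) through Uninjured (-0.11), Acet (0.05) and MP (1.05) to Injured 4 hr (1.95), and each neighbour overlapped the next. Hspa8 ran from CKIN (0.59) through MP (1.07) and Acet (1.51) to Injured 4 hr (1.55), all overlapping their neighbours, and stood apart in Uninjured (3.20). Hspd1 was likewise apart in Uninjured (2.57). Against their own pools the means of Hspa1a probe 1, Hmox1, Hspa8 and Hspd1 were 0.23, 0.90, 0.30 and 0.59 with Indo and 1.85, 2.57, 0.67 and 0.70 with NS398.

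**Figure D3:**
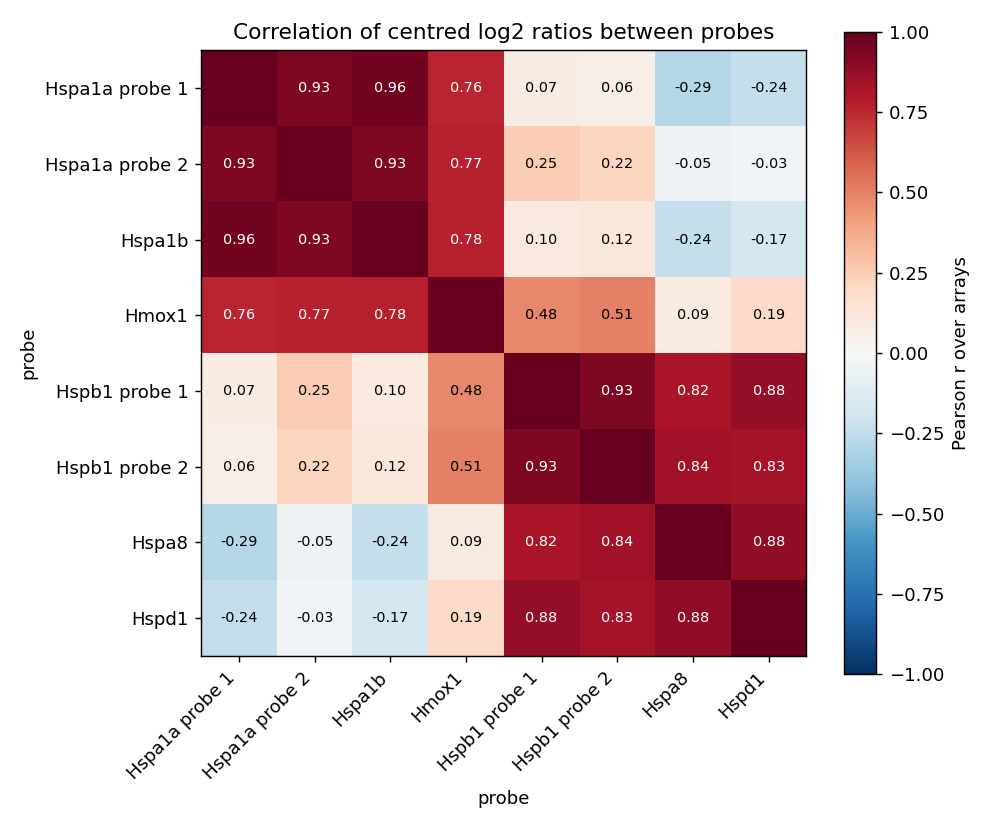
Pearson correlation of centred log2 ratios between the 8 heat shock probes over the arrays that measured both, which share pools, groups and array quality. The 3 HSP70 probes correlate at 0.93 to 0.96 with each other, and Hspb1 correlates at 0.82 to 0.88 with Hspa8 and Hspd1.

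Across the arrays the members formed 2 sets that did not follow their labels. As a description over up to 21 arrays, which share pools, groups and array quality, the 3 pairs of HSP70 probes correlated at 0.93 to 0.96, and Hmox1 with them at 0.76 to 0.78. The Hspb1 probes, labelled inducible, correlated with HSP70 at 0.06 to 0.25 and with Hspa8 and Hspd1 at 0.82 to 0.88. HSP70 and the constitutive pair correlated at -0.29 to -0.03. Hmox1 lay between, at 0.48 to 0.51 with Hspb1.

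The genes whose centred ratios were most like each member are given as a description. For Hspa1a probe 1 these were the chemokine Cxcl2 (r = 0.94), the mRNA-decay factor Zfp36 (0.88) and the stress transcription factor Atf3 (0.87), over 20 arrays. For the second probe they were Cxcl2 (0.87), the NF-kappa-B inhibitor Nfkbia (0.87) and the chemokine Ccl4 (0.85), and for Hspa1b Cxcl2 (0.90), Nfkbia (0.89) and the phosphatase Dusp1 (0.89), over 21 arrays. Hmox1 had Nfkbia (0.89), the protease inhibitor Timp1 (0.88) and the chemokine Cxcl1 (0.86), over 19 or 20 arrays.

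Hspb1 probe 1 had Ptp4a1 (0.94), Lhx2 (0.94) and the elongation factor Eef1d (0.93), and probe 2 had Prl2a1 (0.98) and the ribosomal proteins Rpl37a and Rpl38 (both 0.97). Hspa8 had Cox6a1, a subunit of cytochrome oxidase, the brain creatine kinase Ckb and the opioid receptor Oprd1, all at 0.98. Hspd1 had the proteasome subunit Psma3 (0.96), the phosphofructokinase Pfkp (0.95) and Cd164 (0.95). The sets named for Hspb1 and for the constitutive pair contain no gene named for HSP70 or Hmox1.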

How the data were processed

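The 21 arrays of 5376 probes carry 1 log2 ratio per spot, as deposited by the authors, of the sample over its pooled control. The log base was read from the 15 treatment arrays, where 8.01% to 12.2% of values per array were exact log2 values of small ratios. On the 6 Uninjured and Injured 4 hr arrays 0.183% to 1.17% were, and the same base was assumed there. This difference between arrays runs along CKIN, MP and Acet minus Injured 4 hr, and its part in those changes was not tested. The direction came from the order of names in the titles, which makes it likely but not stated. Scanner, dyes and the authors' normalization: not given in the sources used here. Symbols came from the platform annotation, updated for 4375 of 4423 probes with 1 symbol, while 2 probes had several and 545 measured probes had none. Spots of Gapdh (53) were averaged.

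Each array was centred on its median. All 7 groups were fitted in 1 limma model (R 4.3.3, limma 3.58.1), with probes measured on at least 2 arrays per compared group and 2-sided moderated tests with Benjamini-Hochberg adjustment at 0.05. Indo, NS398 and the Injured arrays against their pool were tested against 0. Corrected ratios had a loess trend (span 0.4) on the mean Injured array subtracted, and then the median of each source plate with at least 20 probes. This brings the Injured arrays near 0 by construction. The fit was tested on simulated data. Figures and motif searches used Python 3.11.15, pandas 2.3.3 and matplotlib 3.10.9.

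The 7 members and the gene and marker lists were chosen with earlier results of these data known. The text names every member probe, up to 5 passing probes per list and comparison by size of change with 1 sign on every treated array, and the 3 genes most correlated with each member.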

Additional observations from a re-analysis of the deposited data

Results flagged for a closer look

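All 8 probes were searched over every pair of treatments for ratios over the pool on opposite sides of 0. In 3 cases this held on every array of both groups, in centred as well as deposited ratios. The share of all probes that meet this rule was not counted, so the 3 cases are a description only. For Hspa1a probe 1, all 3 CKIN arrays were below 0 and all 3 Acet arrays above 0, with centred means 1.42 apart. The direct limma comparison of CKIN and Acet did not call this difference (adjusted p = 0.149). For the same probe, all 3 CKIN arrays were below 0 and all 3 NS398 arrays above 0, with centred means 2.57 apart, a difference that was not tested because the pools differ. For Hspb1 probe 1, all 3 CKIN arrays were below 0 and all 3 Acet arrays above 0, with centred means 1.10 apart (limma, CKIN minus Acet, adjusted p = 0.191).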

How the results depend on the processing

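The counts of probes called were set against each scaling, each filter on missing values, the compared groups alone, the array set (arrays with many missing spots) as a covariate and the omission of each array. Gapdh centring was chosen after the data were seen. In deposited ratios the counts that moved were 2430 for Injured 4 hr minus Uninjured, 2232 for CKIN minus Injured 4 hr, 3169 for MP minus Injured 4 hr, 3370 for Acet minus Injured 4 hr and 290 for Indo against the ethanol pool. They were 1977 for NS398 against the DMSO pool, 2 for CKIN minus Acet, 0 for MP minus Acet and 4408 for Injured 4 hr against the PBS pool. After quantile normalization the counts that moved were 20 for Injured 4 hr minus Uninjured, 35 for MP minus Injured 4 hr, 2457 for Indo against the ethanol pool, 3044 for NS398 against the DMSO pool and 102 for CKIN minus Acet. They were 8 for CKIN minus MP and 3505 for Injured 4 hr against the PBS pool. After scale normalization the counts that moved were 33 for Injured 4 hr minus Uninjured, 1227 for CKIN minus Injured 4 hr, 646 for MP minus Injured 4 hr, 507 for Acet minus Injured 4 hr and 20 for CKIN minus Acet. They were 2 for CKIN minus MP. In corrected ratios the counts that moved were 349 for Injured 4 hr minus Uninjured, 28 for CKIN minus Injured 4 hr, 40 for MP minus Injured 4 hr, 34 for Acet minus Injured 4 hr and 573 for NS398 against the DMSO pool. They were 17 for CKIN minus Acet, 2 for MP minus Acet and 0 for Injured 4 hr against the PBS pool. With the compared groups fitted alone the counts that moved were 1823 for Injured 4 hr minus Uninjured, 24 for MP minus Injured 4 hr, 131 for Acet minus Injured 4 hr, 290 for Indo against the ethanol pool and 125 for NS398 against the DMSO pool. They were 0 for CKIN minus Acet, 0 for MP minus Acet and 2050 for Injured 4 hr against the PBS pool. With the array set as a covariate the counts that moved were 6 for CKIN minus Injured 4 hr, 33 for MP minus Injured 4 hr, 953 for Indo against the ethanol pool, 8 for MP minus Acet and 2 for CKIN minus MP. Tested against the PBS pool the counts that moved were 1370 for MP minus Injured 4 hr and 1443 for Acet minus Injured 4 hr. With a value required on all 3 arrays the counts that moved were 20 for CKIN minus Acet. With a value on 1 array sufficing the counts that moved were 49 for CKIN minus Acet, 3 for MP minus Acet and 19 for CKIN minus MP. Centred on Gapdh the counts that moved were 2914 for Injured 4 hr minus Uninjured, 67 for CKIN minus Injured 4 hr, 3 for MP minus Injured 4 hr, 5 for Acet minus Injured 4 hr and 865 for Indo against the ethanol pool. They were 3488 for NS398 against the DMSO pool, 3 for CKIN minus Acet, 0 for MP minus Acet and 4438 for Injured 4 hr against the PBS pool. Leaving out 1 array at a time, the counts ranged from 356 to 493 for Injured 4 hr minus Uninjured, 205 to 548 for CKIN minus Injured 4 hr, 3 to 598 for MP minus Injured 4 hr, 0 to 122 for Acet minus Injured 4 hr and 299 to 380 for Indo against the ethanol pool. The ranges were 481 to 961 for NS398 against the DMSO pool, 0 to 28 for CKIN minus Acet, 0 to 5 for MP minus Acet, 0 to 8 for CKIN minus MP and 784 to 845 for Injured 4 hr against the PBS pool.

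Same-numbered arrays of compared groups correlated at -0.18 to 0.51, and 0 comparisons had every pair above 0.1, so the numbers were not taken to pair the samples. With the replicate number as a block the counts were 713 for Injured 4 hr minus Uninjured, 785 for CKIN minus Injured 4 hr, 121 for MP minus Injured 4 hr, 86 for Acet minus Injured 4 hr and 523 for Indo against the ethanol pool. They were 1010 for NS398 against the DMSO pool, 6 for CKIN minus Acet, 1 for MP minus Acet, 0 for CKIN minus MP and 1066 for Injured 4 hr against the PBS pool. Of the members' calls, the block ended that of Hmox1 for Injured 4 hr minus Uninjured (1.90, adjusted p = 0.0589) and changed no other.

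In deposited ratios all 8 members changed sign for MP minus Injured 4 hr (0.80 to 1.61), for Acet minus Injured 4 hr (0.024 to 1.89) and for Injured 4 hr against the PBS pool (-1.21 to -0.25). Among the members followed one by one, these changed sign, and the cause was not tested. In deposited ratios, for Injured 4 hr minus Uninjured Hspb1 probe 1 was 1.01, Hspb1 probe 2 0.95 and Hspd1 0.24. For CKIN minus Injured 4 hr Hspb1 probe 2 was 0.062, Hspa8 0.96 and Hspd1 0.82. For MP minus Injured 4 hr Hspa1a probe 1 was 0.95, Hspa1b 0.80 and Hmox1 1.08. For Acet minus Injured 4 hr Hspa1a probe 1 was 1.08, Hspa1b 0.74 and Hmox1 0.024. For NS398 against the DMSO pool Hspa1a probe 2 was -0.0056, Hspa8 -0.22 and Hspd1 -0.19. For Injured 4 hr against the PBS pool Hspa1a probe 1 was -0.65 and Hspa8 -0.65. After quantile normalization, for Injured 4 hr minus Uninjured Hspb1 probe 1 was 0.39 and Hspb1 probe 2 0.42. For Indo against the ethanol pool Hspa1a probe 1 was -0.64 and Hspa1b -0.34. For NS398 against the DMSO pool Hspa1a probe 2 was -0.18, Hspb1 probe 1 -0.11, Hspa8 -0.51 and Hspd1 -0.36. After scale normalization, for Injured 4 hr minus Uninjured Hspb1 probe 1 was 0.86, Hspb1 probe 2 1.08, Hspa8 0.18 and Hspd1 0.21. In corrected ratios, for Injured 4 hr minus Uninjured Hspb1 probe 1 was 0.41. For CKIN minus Injured 4 hr Hspa8 was 0.43 and Hspd1 0.0091. For MP minus Injured 4 hr Hmox1 was 0.21. For Indo against the ethanol pool Hspa1a probe 1 was -0.066. For NS398 against the DMSO pool Hspa8 was -0.13 and Hspd1 -0.010. For CKIN minus Acet Hmox1 was 0.34. For Injured 4 hr against the PBS pool Hspa1a probe 1 was -0.0088 and Hspa8 -0.0015. With the array set as a covariate, for CKIN minus Injured 4 hr Hspa8 was 0.48. For CKIN minus Acet Hmox1 was 0.23. Tested against the PBS pool, for CKIN minus Injured 4 hr Hspb1 probe 2 was 0.024, Hspa8 0.59 and Hspd1 0.18. For MP minus Injured 4 hr Hspa1a probe 1 was 0.52, Hspa1b 0.76 and Hmox1 1.05. For Acet minus Injured 4 hr Hspa1a probe 1 was 0.70, Hspa1b 0.75 and Hmox1 0.046. Centred on Gapdh, for Injured 4 hr minus Uninjured Hspb1 probe 1 was 1.21, Hspb1 probe 2 1.15, Hspa8 0.080 and Hspd1 0.44. For CKIN minus Injured 4 hr Hspa8 was 0.27 and Hspd1 0.13. For Indo against the ethanol pool Hspa1a probe 1 was -0.35 and Hspa1b -0.19. For NS398 against the DMSO pool Hspa1a probe 2 was -0.47, Hspb1 probe 1 -0.45, Hspa8 -0.69 and Hspd1 -0.66. For Injured 4 hr against the PBS pool Hspa1a probe 1 was -0.61 and Hspa8 -0.61. With the array set as a covariate, Hspa1a probe 2 for Indo against the ethanol pool was 0.49. Over all 8 members and comparisons, 603 of 822 values under other settings kept their sign and their side of the threshold, 141 changed sign, 55 lost a call and 23 gained one. Of 404 values with 1 array left out, 352 kept both, 20 changed sign, 22 lost a call and 10 gained one. The deposited files give ratios with no signal or background, so no probe's precision could be judged from its brightness, and the 3 arrays per group limit the rest.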
